A study of Xenopus laevis with 12 samples.

Results

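The crushed-eye libraries of days 7 and 11, called the late days here, were set against the crushed-eye library of day 3, to show how ribosome-bound RNA of retinal ganglion cells changed between the early injury response and the days of regrowth in adult Xenopus laevis. These are 3 of the 12 libraries of the series, and 19836 of 45099 gene models entered, namely those with 200 or more counts over the 3 libraries. Of the 19836 genes, 12000 carry a gene symbol. The same contrast in the contralateral eye, days 7 and 11 against day 3, is the background.

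Per the labels, the frogs were transgenic progeny of single female founder lines, over 6 months old and past metamorphosis, in which an islet2b promoter drove the ribosomal protein RPL10a fused to EGFP. Ribosomes of the tagged cells were pulled down from retina with an antibody against EGFP, a method called translating ribosome affinity purification (TRAP), and the RNA bound to them was sequenced. The right optic nerve was crushed with forceps, the left nerve of the same frogs was not operated on, and frogs were left for 1, 3, 7 or 11 days. The sample labels put the crush on the right side throughout and were followed, although the design text says left in a single place. Each TRAP library was pooled from 3 biological replicates, so that every eye and day is 1 library. The groups used here are the late crushed eye (days 7 and 11), the day 3 crushed eye, the late contralateral eye and the day 3 contralateral eye, and all of them carry the transgene. Unoperated frogs (naive), sham-operated frogs (left and right eye) and the contralateral eyes of days 1, 3, 7 and 11 give 7 uninjured TRAP libraries, whose range is used as a yardstick.

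Retinal ganglion cells are the neurons whose axons form the optic nerve. In mammals most of them die after optic nerve injury and few regrow an axon, whereas in frogs and fish they survive in large part and reconnect to the brain. An axotomised neuron first switches on injury transcription factors such as those of the AP-1 and ATF families, and a neuron that regrows then makes cytoskeleton, membrane and protein synthesis machinery for the new axon, while many genes of its mature state, such as ion channels and synaptic proteins, are turned down. The RNA bound to tagged ribosomes reports the first step of protein production, not protein levels.

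The crushed-eye libraries held 63299958 counts at day 7 and 46385241 at day 11, against 22615118 at day 3, and the contralateral libraries 16820509 and 43576226, against 34978088. Among the crushed-eye libraries that of day 3 is the shallowest, and genes low there are the least precisely measured. Levels are CPM (counts scaled to library size) after scaling by the trimmed mean of M values (TMM), and ratios are log2 with a prior count of 2. Because a condition has 1 library, a fold call (over 2-fold on the same side of day 3 on both late days) carries no test. Where a p-value is given, edgeR treated days 7 and 11 as repeats of the late period within each eye, and the lone day 3 libraries were assumed to vary alike. The spread then includes any change between days 7 and 11, and only 2 residual degrees of freedom are left. "Rose" and "fell" below refer to genes with an adjusted p under 0.05 in this edgeR test of the crushed eye, relative to day 3. The p-values cover the spread between pooled libraries, not between frogs.

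Late crushed retinas differed from day 3 in many genes, and the same contrast in the contralateral eye called few. Relative to day 3, 1791 genes (9.03% of 19836) were called higher by fold on both late days in the crushed eye, and 2398 (12.1%) were called lower, 4189 (21.1%) in all. In the contralateral eye the same rule called 230 genes (1.16%) higher and 103 (0.519%) lower, 333 (1.68%) in all. With library totals as the scale, the median of all genes in the crushed eye moved to -0.22, against -0.06 with TMM, and the split was 1333 higher and 2967 lower. Taken alone, day 7 called 2292 genes higher and 2968 lower in the crushed eye and day 11 called 2740 and 3581, and in the contralateral eye day 7 called 442 and 424 and day 11 called 525 and 336. Days 7 and 11 went opposite ways, each over 2-fold from day 3, for 4 genes. At the threshold, ndufa6.S lay just inside the higher calls with a weaker-day log2 ratio of 1.0007 and ywhaq.S just outside with 0.99901. Among the lower calls, snap25.L lay just inside (-1.0018) and dstn.S just outside (-0.99888).

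By edgeR, 2904 genes (14.6%) rose and 3622 (18.3%) fell in the crushed eye at an adjusted p under 0.05, 6526 (32.9%) in all. The counts of list genes that rose or fell below are to be read against these shares. In the contralateral eye edgeR called 0 genes (0%), with 721 genes at an unadjusted p under 0.05, against 8652 in the crushed eye. DESeq2 called 5 contralateral genes higher and 0 lower, and limma-voom called 0. The difference between the eyes, tested in the same fit, passed for 1295 genes (6.53%) that went further up in the crushed eye and 1736 (8.75%) that went further down, 3031 (15.3%) in all. Counts of list genes that passed for this difference are to be read against 6.53% higher and 8.75% lower. With total counts as the scale, edgeR called 2084 higher and 4308 lower in the crushed eye, and 766 higher and 1976 lower for the difference between eyes. The number called for the difference between eyes rests on single libraries: it was 596 higher and 902 lower without the day 7 contralateral library and 426 and 814 without that of day 11, but 2930 and 3714 without the day 7 crushed library and 2409 and 3073 without that of day 11. Of the fold calls, 1482 of 1791 higher and 2239 of 2398 lower genes also passed edgeR.

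**Figure D1:**
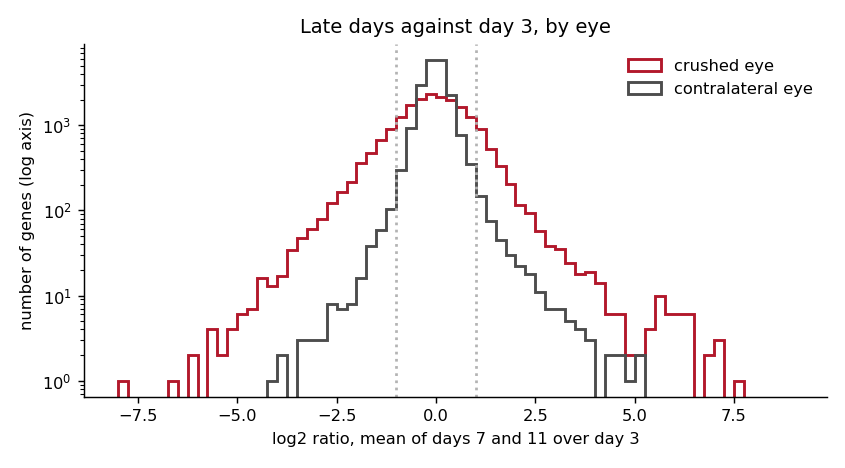
Number of genes (log axis) by log2 ratio of the mean of days 7 and 11 over day 3, for the crushed eye (red) and the contralateral eye (grey), with dotted lines at 2-fold. The crushed-eye distribution is the wider of the pair, with 1791 and 2398 genes called in the higher and lower direction, against 230 and 103 in the contralateral eye.

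Most called genes lay outside the uninjured range on the late days. Of the 1791 higher genes, 1537 (85.8%) were above all 7 uninjured libraries on both late days, against 6225 (31.4%) of all genes. At day 3, 586 of them were already above that range, 587 within it and 618 below it (32.7%, 32.8% and 34.5%, against 31.2%, 39.3% and 29.4% of all genes), and 403 passed from below the range at day 3 to above it on both late days. Of the 2398 lower genes, 2101 (87.6%) were below all uninjured libraries on both late days, against 6047 (30.5%) of all genes. At day 3, 929 of them were already below, 758 within and 711 above the range (38.7%, 31.6% and 29.7%). Of those 711, 432 were below the range on both late days, 98 were back within it and 52 were still above. In the day 1 crushed eye 71.4% of the higher and 78.7% of the lower genes were within the uninjured range, against 76.2% of all genes. The late libraries and the day 3 library enter both the call and their own positions. These counts, also where set beside the shares of all genes, therefore describe and do not test.

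**Figure D2:**
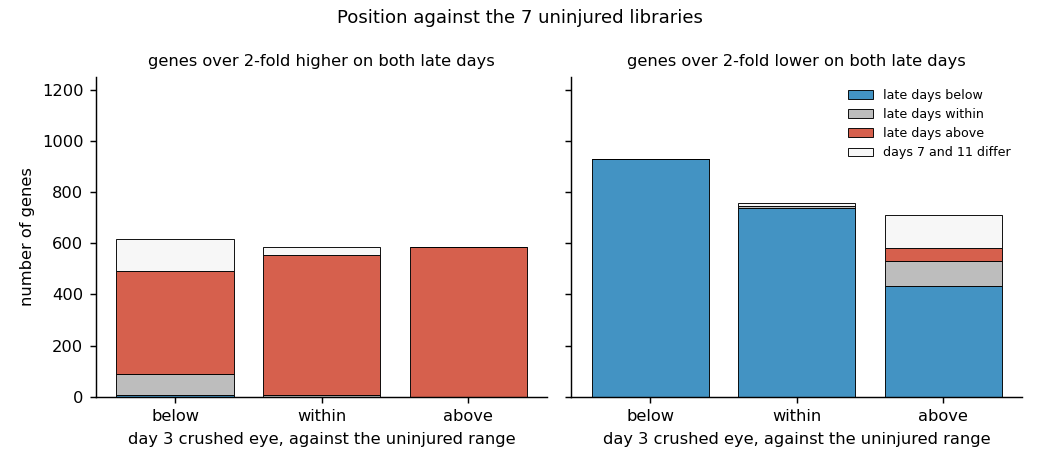
Number of genes over 2-fold higher (left) or lower (right) on both late days, split along the x axis by where the day 3 crushed library lay against the range of the 7 uninjured libraries; colours give where both late crushed libraries lay. Late days above the range fill most of the left panel (1537 of 1791 genes) and late days below it most of the right panel (2101 of 2398).

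The lower genes were more often those that the TRAP method enriches. In unoperated frogs their median log2 ratio of TRAP RNA to total retina RNA was 0.56, and 36.1% were over 2-fold higher in TRAP RNA, against 0.07 and 18.8% for the higher genes and 0.14 and 19.3% for all genes tested. Over 2-fold lower in TRAP RNA were 23.2% of the higher genes, 15.5% of the lower genes and 18.3% of all genes tested. Gene models of the higher genes were shorter (median 1928 bases, against 2868 for all genes and 3242 for the lower genes). The part that transcript length plays in the calls was not tested.

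Most genes that mark a mature ganglion cell fell, and their summed level at day 11 depended on the measure. Ganglion cell markers summed to 8659 and 13440 CPM at days 7 and 11, against 13081 CPM at day 3 (uninjured 18981 to 20218 CPM). In TPM (transcript abundance corrected for length) they summed to 5040 and 7057 at days 7 and 11, against 10282 at day 3. The sum was thus below day 3 on both late days in TPM, and at day 7 only in CPM. Of 37 measured ganglion cell markers, 31 fell and 2 rose, against 18.3% and 14.6% of all genes, with a median log2 ratio of -1.65 (-1.77 at day 7 and -1.44 at day 11), against -0.06 for all genes and -0.04 for the markers in the contralateral eye. sncg.L was at 20.1 and 17.9 CPM on the late days, against 239.7 CPM at day 3, and the contralateral libraries had 657 and 574 CPM on the late days, against 569 CPM at day 3 (log2 fold change -3.65 ± 0.19, edgeR adjusted p = 1.22e-06). sncg encodes gamma-synuclein, an abundant protein of ganglion cell axons. Both late values lie far below every contralateral value, and the day 3 value lies between. rbpms2.L was at 94.5 and 154 CPM on the late days, against 1295 CPM at day 3 (log2 fold change -3.38 ± 0.26, edgeR adjusted p = 1.53e-05), and its contralateral level was 3202 and 3250.3 CPM on the late days, against 3060 CPM at day 3. rbpms2 encodes an RNA-binding protein used as a ganglion cell marker. The exceptions were both copies of tubb3, a neuronal beta-tubulin: tubb3.S measured 2027 and 3878 CPM at days 7 and 11, against 904 CPM at day 3 (log2 fold change 1.71 ± 0.37, edgeR adjusted p = 0.00880), above its uninjured range of 654 to 832 CPM. In pooled tissue, fewer tagged cells of a type and less RNA per cell cannot be told apart, and the tag is driven by the promoter of an Islet gene. isl1, a relative of that gene, fell in both copies (-1.26 ± 0.19, edgeR adjusted p = 6.95e-04 for isl1.L), and the part of promoter activity in the levels above was not tested. The gene isl2 has no model with that symbol and was not analysed here.

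Transcription factors of ganglion cells fell in 30 of 35 measured cases and rose in 0, with a median of -1.56. The gene lists overlap, so their counts are not separate results. For example, pou4f3.L is also among the ganglion cell markers above, and scn2b.L counts both there and among the channels below. irx4, an Iroquois homeobox factor, had the smallest edgeR p of the lower calls with a symbol: irx4.L was at 5.43 and 5.17 CPM on the late days, against 106 CPM at day 3, and the contralateral libraries had 259.9 and 276 CPM on the late days, against 268 CPM at day 3 (log2 fold change -4.32 ± 0.19, edgeR adjusted p = 7.59e-07). Its day 3 level was already under all 3 contralateral levels, and the late levels were lower again. irx4.S behaved alike at 1.41 and 0.875 CPM on the late days, against 33.3 CPM at day 3. pou4f3.L had 1.62 and 1.2 CPM in the late crushed eye, against 16.7 CPM at day 3 (log2 fold change -3.55 ± 0.24, edgeR adjusted p = 5.00e-06), and the contralateral libraries had 86.3 and 88.5 CPM on the late days, against 66.2 CPM at day 3. pou4f3 and its relatives are POU-domain factors of sensory and ganglion neurons. The difference between eyes passed for 19 of the 35 factors in the lower direction. pou4f1.2.S, of the same family, was at 168 and 146 CPM on the late days, against 312 CPM at day 3 (log2 fold change -0.99 ± 0.18, edgeR adjusted p = 0.00216). Its day 3 level was above its uninjured range of 248 to 295 CPM, and both late levels were below it.

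Many ion channel genes fell. Of 39 potassium channel genes 2 rose and 23 fell (median -1.34), and of 39 genes for sodium, calcium and HCN channels and the sodium pump 1 rose and 22 fell (median -1.13). The difference between eyes passed in the lower direction for 10 and 12 of them. scn2b.L was at 16.5 and 9.67 CPM on the late days, against 331 CPM at day 3, and the contralateral libraries had 451 and 368 CPM on the late days, against 456 CPM at day 3 (log2 fold change -4.65 ± 0.29, edgeR adjusted p = 7.24e-06). scn2b encodes a beta subunit of voltage-gated sodium channels. The day 3 level of scn2b.L was already below its uninjured range of 368 to 529 CPM, and the late levels were far lower. kcnip3 encodes a calcium-binding partner of potassium channels, and here kcnip3.L stood at 44.5 and 36.7 CPM at days 7 and 11, against 709.7 CPM at day 3 (log2 fold change -4.13 ± 0.20, edgeR adjusted p = 9.42e-07). Electrically silent potassium channel subunits were among the deepest falls. kcns1.L was at 1.09 and 0.375 CPM on the late days, against 35.8 CPM at day 3 (-5.53 ± 0.39, edgeR adjusted p = 3.13e-05), and kcnf1.L at 1.97 and 0.200 CPM on the late days, against 46.1 CPM at day 3 (-5.30 ± 0.94, edgeR adjusted p = 0.0213). kcnf1.L differed between days 7 and 11, and its call was lost without either late contralateral library. fxyd7.L, for a regulator of the sodium pump, was at 0.392 and 0.375 CPM on the late days, against 18.4 CPM at day 3 (-5.57 ± 0.27, edgeR adjusted p = 9.42e-07).

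Genes of receptors and of the release machinery fell or did not pass the test. Of 46 neurotransmitter receptor genes 0 rose and 32 fell (median -1.49), and the difference between eyes passed for 19 in the lower direction. Both copies of the serotonin receptor htr1d were lowest: htr1d.S was at 0.596 and 0.0750 CPM on the late days, against 9.75 CPM at day 3 (-4.75 ± 0.67, edgeR adjusted p = 9.24e-04), and htr1d.L at 0.494 and 0.200 CPM, against 10.3 CPM (-4.82 ± 0.44, edgeR adjusted p = 3.19e-05). grm7.S measured 4.85 and 2.45 CPM at days 7 and 11, against 32.6 CPM at day 3 (log2 fold change -3.15 ± 0.36, edgeR adjusted p = 1.30e-04); grm7 encodes a metabotropic glutamate receptor. Of 38 synaptic vesicle release genes 0 rose and 18 fell (median -0.77). cplx1.1, for complexin, which controls vesicle fusion, was at 226 and 169.5 CPM on the late days, against 1041 CPM at day 3 (-2.40 ± 0.21, edgeR adjusted p = 2.42e-05). snap25.L, for a member of the fusion complex, was at 1187 and 999 CPM on the late days, against 2377 CPM at day 3 (-1.12 ± 0.20, edgeR adjusted p = 0.00150). Its day 3 level was just under its uninjured range of 2500.4 to 2847 CPM. slc17a6.S, the vesicular glutamate transporter that makes these cells glutamatergic, was at 4.0 and 0.950 CPM on the late days, against 14.2 CPM at day 3 (-2.49 ± 0.66, edgeR adjusted p = 0.0245).

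Of 47 cadherins and protocadherins 0 rose and 31 fell (median -1.36), and of 50 axon guidance ligands and receptors 3 rose and 25 fell (median -0.68). cdh24.L had 1.14 and 1.15 CPM in the late crushed eye, against 22.9 CPM at day 3 (log2 fold change -4.32 ± 0.34, edgeR adjusted p = 1.21e-05), with uninjured levels of 9.56 to 17.3 CPM, so that this cadherin gene passed from above the uninjured range to below it. sema3d.S stood at 4.72 and 3.25 CPM at days 7 and 11, against 37.9 CPM at day 3 (log2 fold change -3.24 ± 0.28, edgeR adjusted p = 2.04e-05), and the receptor gene epha3.L was at 4.14 and 1.05 CPM on the late days, against 17.9 CPM at day 3 (-2.76 ± 0.62, edgeR adjusted p = 0.0101). The 3 guidance genes that rose were sema3b.L, sema4a.L and plxnb3.S, genes of secreted and membrane semaphorins and a plexin receptor. sema3b.L was at 16.9 and 23.1 CPM on the late days, against 2.65 CPM at day 3 (log2 fold change 2.92 ± 0.44, edgeR adjusted p = 6.88e-04). Its contralateral levels were 0.806 and 0.676 CPM on the late days, against 0.195 CPM at day 3, and the difference between eyes did not pass (1.04 ± 0.78, edgeR adjusted p = 0.397). Of 30 trophic factor and receptor genes 1 rose and 10 fell (median -0.36). grp.S, for gastrin-releasing peptide, was the lowest of the called genes with a symbol: grp.S was at 2.62 and 1.80 CPM on the late days, against 152 CPM at day 3, and the contralateral libraries had 429 and 294 CPM on the late days, against 368 CPM at day 3 (log2 fold change -6.08 ± 0.29, edgeR adjusted p = 1.50e-06). igf2.L, for an insulin-like growth factor, was at 364 and 169 CPM on the late days, against 645 CPM at day 3 (-1.28 ± 0.38, edgeR adjusted p = 0.0401), with uninjured levels of 10.5 to 15.3 CPM. The crushed-eye levels of igf2.L thus lay above the uninjured range on all 3 days.

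Of 45 measured injury transcription factors, 6 rose and 9 fell, 30 did neither, and the median was -0.21. These counts are near the background of 14.6% and 18.3% of all genes, and the values below are those of single genes. At day 3, 39 of the 45 lay above all uninjured libraries, and 32 did so on both late days, against 31.2% and 31.4% of all genes. The immediate-early genes fos and egr1 fell furthest. fos.S was at 3.80 and 1.95 CPM on the late days, against 75.9 CPM at day 3, and the contralateral libraries had 35.8 and 67.3 CPM on the late days, against 34.1 CPM at day 3 (log2 fold change -4.70 ± 0.45, edgeR adjusted p = 2.88e-04). The late levels were thus below every contralateral level, and the crushed-eye day 3 level was above them. fos.L was at 1.23 and 1.07 CPM on the late days, against 24.4 CPM at day 3 (-4.40 ± 0.36, edgeR adjusted p = 1.51e-05), and egr1.S at 1.6 and 0.425 CPM, against 12.5 CPM (-3.59 ± 0.60, edgeR adjusted p = 0.00155).

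Other injury factors remained above the uninjured range on the late days. jun.S was at 545 and 584 CPM on the late days, against 585 CPM at day 3 (log2 fold change -0.05 ± 0.18, edgeR adjusted p = 0.850), and the contralateral libraries had 41.4 and 41.9 CPM on the late days, against 41.4 CPM at day 3, so all 3 crushed-eye levels of this AP-1 subunit were above the contralateral ones and close to each other. atf3.S measured 116 and 76.6 CPM at days 7 and 11, against 221 CPM at day 3 (log2 fold change -1.2 ± 0.24, edgeR adjusted p = 0.00380), with uninjured levels of 2.73 to 3.90 CPM. jund.S, for another AP-1 subunit, was at 552 and 574 CPM on the late days, against 982 CPM at day 3 (-0.80 ± 0.19, edgeR adjusted p = 0.00886). fosl1.L, a further AP-1 gene, rose: fosl1.L had 33.6 and 43.2 CPM in the late crushed eye, against 7.24 CPM at day 3 (log2 fold change 2.41 ± 0.43, edgeR adjusted p = 0.00185). The others that rose were both copies of sox11, klf7.L, smad1.L and ets2.S, which encode an SRY-box factor, a Krueppel-like factor, an effector of BMP receptors and an ETS factor. sox11.L reached 592 and 669 CPM at days 7 and 11, against 368 CPM at day 3 (log2 fold change 0.78 ± 0.19, edgeR adjusted p = 0.00932). smad1.L was at 25.4 and 27.6 CPM on the late days, against 9.53 CPM at day 3 (log2 fold change 1.48 ± 0.33, edgeR adjusted p = 0.00627), and ets2.S was at 14.9 and 22.2 CPM on the late days, against 4.85 CPM at day 3 (1.93 ± 0.40, edgeR adjusted p = 0.00410). The difference between eyes passed for 2 in the higher and 8 in the lower direction on this list.

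**Figure D3:**
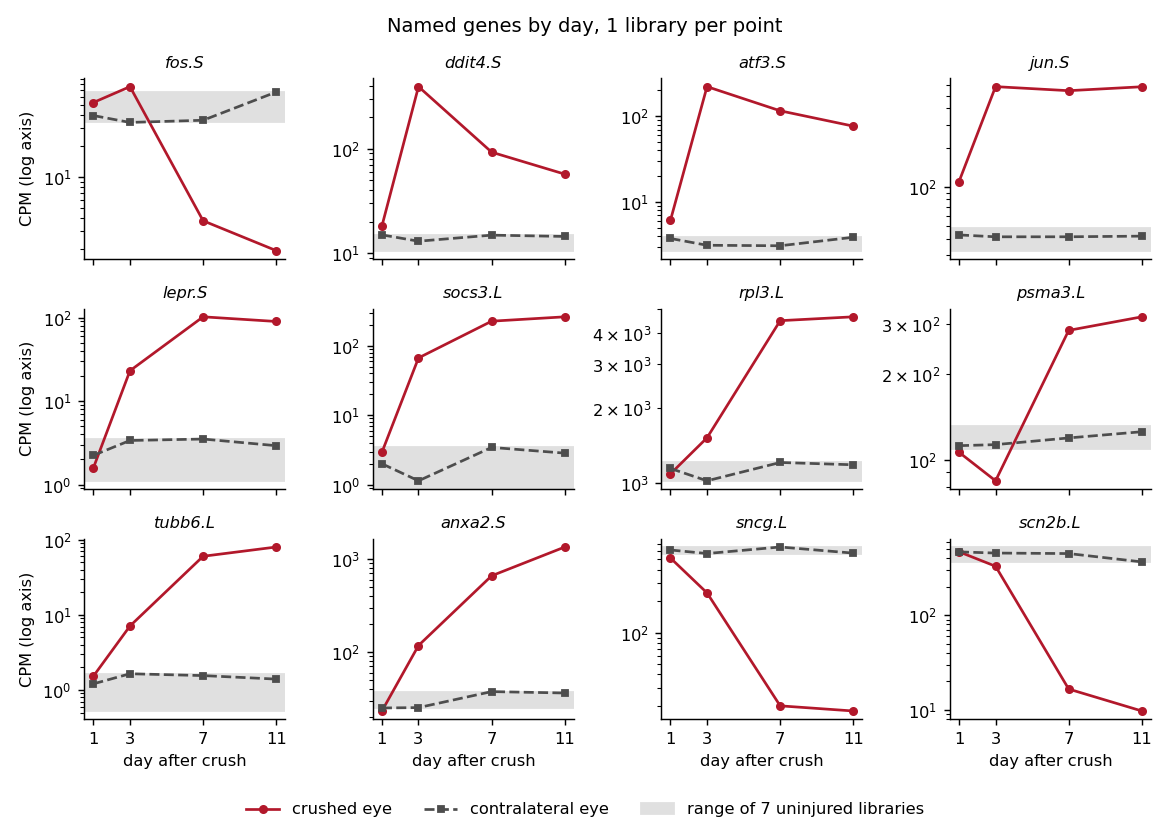
CPM (log axis) of 12 named genes at days 1, 3, 7 and 11 in the crushed eye (red) and the contralateral eye (grey, dashed), 1 library per point, with the range of the 7 uninjured libraries shaded. fos.S and ddit4.S are highest at day 3, jun.S is level across days 3, 7 and 11, lepr.S, socs3.L, rpl3.L, psma3.L, tubb6.L and anxa2.S are higher on the late days than at day 3, and sncg.L and scn2b.L are lower.

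Within cytokine signalling, 9 of 35 genes rose and 8 fell, against 14.6% and 18.3% of all genes (median -0.12). Those that rose were led by the leptin pathway and by feedback inhibitors of JAK-STAT signalling. lepr.S measured 102 and 90.0 CPM at days 7 and 11, against 23.1 CPM at day 3 (log2 fold change 2.06 ± 0.25, edgeR adjusted p = 1.56e-04), and lep.S was at 236 and 191 CPM on the late days, against 77.5 CPM at day 3 (1.46 ± 0.22, edgeR adjusted p = 6.82e-04); lep and lepr encode leptin and its receptor. cish.S had 44.9 and 67.3 CPM in the late crushed eye, against 4.06 CPM at day 3 (log2 fold change 3.79 ± 0.38, edgeR adjusted p = 5.63e-05), and socs3.L, for a feedback inhibitor of the same kind, was at 226 and 261 CPM on the late days, against 66.9 CPM at day 3 (1.86 ± 0.22, edgeR adjusted p = 1.47e-04). The contralateral levels of socs3.L were 3.46 and 2.86 CPM on the late days, against 1.14 CPM at day 3, far below all 3 crushed-eye levels. For socs3.L the difference between eyes did not pass (edgeR adjusted p = 0.445). Nor did it pass for lep.S, whose contralateral levels were 1.79 and 1.48 CPM on the late days, against 0.669 CPM at day 3 (edgeR adjusted p = 0.771). Both copies of lifr and osmr.S, receptor genes for LIF and oncostatin, fell. lifr.L stood at 7.22 and 6.27 CPM at days 7 and 11, against 22.9 CPM at day 3 (log2 fold change -1.76 ± 0.29, edgeR adjusted p = 0.00114), and osmr.S was at 16.5 and 16.0 CPM on the late days, against 27.3 CPM at day 3 (-0.75 ± 0.24, edgeR adjusted p = 0.0346). irf1.S was at 0.851 and 0.250 CPM on the late days, against 7.41 CPM at day 3 (log2 fold change -3.71 ± 0.78, edgeR adjusted p = 0.00425); irf1 encodes an interferon-response factor, and both late levels were within the uninjured range of 0.192 to 1.17 CPM.

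Of 40 genes of MAP kinases and their feedback phosphatases, 19 fell and 4 rose, with a median of -0.91. dusp10, which encodes a phosphatase of JNK and p38, had the lowest ratio: dusp10.1.L measured 17.6 and 9.15 CPM at days 7 and 11, against 88.3 CPM at day 3 (log2 fold change -2.72 ± 0.31, edgeR adjusted p = 2.83e-04), and the contralateral libraries had 66.6 and 67.8 CPM on the late days, against 68.3 CPM at day 3. map2k4.S had 86.9 and 59.9 CPM in the late crushed eye, against 240.5 CPM at day 3 (log2 fold change -1.71 ± 0.25, edgeR adjusted p = 5.64e-04), with uninjured levels of 48.7 to 66.8 CPM; map2k4 and map2k7 encode the kinases that activate JNK. map2k7.S was at 23 and 23 CPM on the late days, against 62.7 CPM at day 3 (-1.45 ± 0.19, edgeR adjusted p = 3.28e-04). Those that rose were both copies of map2k1, mapk12.L and map3k14.S, for MEK1, a p38 kinase and a kinase of the NF-kappa-B pathway. mapk12.L reached 45.6 and 68.2 CPM at days 7 and 11, against 13.3 CPM at day 3 (log2 fold change 2.09 ± 0.34, edgeR adjusted p = 9.97e-04). map3k14.S was at 49.2 and 53.2 CPM on the late days, against 13.7 CPM at day 3 (log2 fold change 1.90 ± 0.34, edgeR adjusted p = 0.00164). In the contralateral eye map3k14.S was at 0.749 and 1.46 CPM on the late days and had 0 counts at day 3, and the difference between eyes passed in the lower direction (edgeR adjusted p = 0.0200).

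Of 37 genes of apoptosis, survival and p53, 9 rose and 12 fell (median -0.20). ddit4, whose product inhibits the growth kinase complex mTORC1, and the sestrin gene sesn1 fell. ddit4.S was at 92.6 and 57.0 CPM on the late days, against 395 CPM at day 3, and the contralateral libraries had 14.8 and 14.4 CPM on the late days, against 12.9 CPM at day 3 (log2 fold change -2.40 ± 0.25, edgeR adjusted p = 9.99e-05). Although it fell, ddit4.S was above all uninjured libraries on all 3 days in the crushed eye. sesn1.L measured 19.0 and 15.6 CPM at days 7 and 11, against 52.0 CPM at day 3 (log2 fold change -1.59 ± 0.23, edgeR adjusted p = 4.74e-04). btg2.S, for an antiproliferative factor, was at 1.07 and 1.97 CPM on the late days, against 8.21 CPM at day 3 (-2.44 ± 0.84, edgeR adjusted p = 0.0491). Among those that rose, gadd45a.L had 66.2 and 47.8 CPM in the late crushed eye, against 22.8 CPM at day 3 (log2 fold change 1.32 ± 0.34, edgeR adjusted p = 0.0133), and tnfrsf1a.L was at 6.76 and 5.75 CPM on the late days, against 1.28 CPM at day 3 (2.29 ± 0.66, edgeR adjusted p = 0.0217); these encode a damage-induced protein and a TNF receptor. gadd45g.S, of the same family as gadd45a, was at 519 and 330.1 CPM on the late days, against 676 CPM at day 3 (-0.67 ± 0.27, edgeR adjusted p = 0.0789), with uninjured levels of 12.4 to 19.0 CPM.

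Genes of the integrated stress response and amino acid synthesis fell in 13 of 41 cases and rose in 2 (median -0.40). ddit3, which encodes the stress factor CHOP, fell in both copies. ddit3.S stood at 33.7 and 22.6 CPM at days 7 and 11, against 129 CPM at day 3 (log2 fold change -2.19 ± 0.25, edgeR adjusted p = 1.34e-04), and ddit3.L was at 275 and 258 CPM on the late days, against 506 CPM at day 3 (-0.92 ± 0.17, edgeR adjusted p = 0.00234). mthfd2.L was at 134 and 155 CPM on the late days, against 392 CPM at day 3 (log2 fold change -1.44 ± 0.19, edgeR adjusted p = 2.63e-04) and phgdh.S was at 78.5 and 118 CPM on the late days, against 304 CPM at day 3 (-1.63 ± 0.23, edgeR adjusted p = 4.81e-04); these encode enzymes of serine and folate metabolism. atf4.S, for the central factor of this response, was at 1142 and 972 CPM on the late days, against 1389 CPM at day 3 (-0.39 ± 0.20, edgeR adjusted p = 0.153), and its uninjured levels were 376 to 463 CPM. All 3 crushed-eye levels of atf4.S were above that range.

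Many genes of the protein synthesis machinery rose. For the cytosolic ribosome, 58 of 59 measured protein genes rose by edgeR and 0 fell, against 14.6% and 18.3% of all genes, with a median of 1.00 (0.92 at day 7, 1.12 at day 11) and 0.09 in the contralateral eye. Their summed level was 86507 and 89419 TPM (transcript abundance corrected for length) on the late days, against 56340 TPM at day 3, and in the contralateral eye 40512 and 44024 TPM, against 39769 TPM. The crushed eye thus exceeded the contralateral eye on each day, most on the late days. rpl3.L measured 4497 and 4660.2 CPM at days 7 and 11, against 1519.5 CPM at day 3 (log2 fold change 1.59 ± 0.21, edgeR adjusted p = 2.79e-04), and the contralateral libraries had 1209 and 1183 CPM on the late days, against 1020.2 CPM at day 3. rpl22l1.L had 133 and 175 CPM in the late crushed eye, against 32.1 CPM at day 3 (log2 fold change 2.26 ± 0.25, edgeR adjusted p = 9.12e-05); it encodes a paralog of ribosomal protein L22. rplp0.S reached 320 and 344 CPM at days 7 and 11, against 96.4 CPM at day 3 (log2 fold change 1.78 ± 0.21, edgeR adjusted p = 1.33e-04). The difference between eyes passed for 35 of the 59 genes, all higher. With total counts as the scale the median was 0.84.

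Of the 93 measured genes that build ribosomes, 58 rose and 2 fell (median 0.92), and the difference between eyes passed for 36 in the higher and 1 in the lower direction. naf1, gar1 and nhp2, which make or belong to the H/ACA particles that modify ribosomal RNA, had the highest ratios. naf1.L was at 106 and 86.6 CPM on the late days, against 24.4 CPM at day 3 (log2 fold change 1.97 ± 0.24, edgeR adjusted p = 1.74e-04). gar1.L measured 61.7 and 55.9 CPM at days 7 and 11, against 16.9 CPM at day 3 (log2 fold change 1.80 ± 0.27, edgeR adjusted p = 6.16e-04). nhp2.L was at 76.2 and 58.4 CPM on the late days, against 20.2 CPM at day 3 (1.74 ± 0.29, edgeR adjusted p = 0.00114). The genes that fell were ddx21.1 and ddx21.S, for an RNA helicase. ddx21.1 was at 367 and 401 CPM on the late days, against 587 CPM at day 3 (-0.61 ± 0.19, edgeR adjusted p = 0.0265). Among 62 translation initiation and elongation factors 30 rose and 4 fell (median 0.60). eef1b2.L had 1743 and 2333 CPM in the late crushed eye, against 546 CPM at day 3 (log2 fold change 1.90 ± 0.23, edgeR adjusted p = 1.92e-04), and eif2b1.L was at 140.5 and 142 CPM on the late days, against 49.8 CPM at day 3 (1.5 ± 0.21, edgeR adjusted p = 4.12e-04); the first takes part in elongation and the second recycles eIF2. Among 25 tRNA synthetase genes 12 rose and 1 fell (median 0.41), with cars.S, for the cysteine enzyme, at 224 and 268 CPM on the late days, against 93.3 CPM at day 3 (1.40 ± 0.26, edgeR adjusted p = 0.00229). By fold, 2 of the 25 were called higher, against 9.03% of all genes. The synthetase genes summed to 5271 and 5420 CPM on the late days, against 4008 CPM at day 3. In TPM the sums were 3080 and 2880, against 2899.5, so that only day 7 was above day 3.

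The proteasome degrades proteins marked with ubiquitin. Of its 63 measured subunit genes 53 rose and 0 fell, with a median of 1.01, against -0.08 in the contralateral eye, and the difference between eyes passed for 39 in the higher and 0 in the lower direction. psma3.L reached 285 and 319 CPM at days 7 and 11, against 84.1 CPM at day 3 (log2 fold change 1.84 ± 0.20, edgeR adjusted p = 9.41e-05), and the contralateral libraries had 119 and 125 CPM on the late days, against 113 CPM at day 3. At day 3 psma3.L was under its uninjured range of 109 to 131 CPM, and on both late days it was above it. psmd8.L was at 226 and 287 CPM on the late days, against 75.2 CPM at day 3 (log2 fold change 1.77 ± 0.22, edgeR adjusted p = 2.21e-04). At day 3, 12 of the 63 subunit genes were below all uninjured libraries and 23 were above them, against 29.4% and 31.2% of all genes. On both late days 58 were above these libraries, against 31.4% of all genes. Heat shock proteins and cytosolic chaperones had 23 of 44 genes that rose and 1 that fell (median 0.72). Those that rose included genes of the TCP1 chaperonin, which folds actin and tubulin: tcp1.L measured 925 and 994 CPM at days 7 and 11, against 313 CPM at day 3 (log2 fold change 1.62 ± 0.20, edgeR adjusted p = 1.72e-04), and cct2.L was at 619 and 588 CPM on the late days, against 197 CPM at day 3 (1.61 ± 0.20, edgeR adjusted p = 1.70e-04). cryab, for a small heat shock protein that is also a lens crystallin, rose in both copies. cryab.L had 128 and 128 CPM in the late crushed eye, against 15.0 CPM at day 3 (log2 fold change 3.10 ± 0.28, edgeR adjusted p = 2.77e-05). dnajb6.S, for a co-chaperone, fell: 28.1 and 24.3 CPM on the late days, against 88.6 CPM at day 3 (-1.76 ± 0.19, edgeR adjusted p = 9.70e-05).

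Many mitochondrial genes rose and 0 on both lists fell. Of 107 respiratory chain genes 60 rose and 0 fell (median 0.64), and of 71 mitochondrial ribosomal protein genes 30 rose and 0 fell (median 0.63). By fold, 7 of the 107 and 11 of the 71 were called higher, against 9.03% of all genes. Respiratory chain genes summed to 20113 and 20856 TPM on the late days, against 16620 TPM at day 3. The contralateral sums, 25647 and 24496 TPM, against 25365 TPM, were higher on each day. In CPM the late crushed-eye sums, 11742 and 13235, were above the uninjured range of 10647 to 11574. At day 3, 87 of the 107 respiratory chain genes were below all uninjured libraries, against 29.4% of all genes. On both late days 21 of the 107 were below the uninjured libraries and 34 were above, against 30.5% and 31.4% of all genes. The difference between eyes passed for 23 in the higher and 0 in the lower direction among the respiratory chain genes. cox17.L reached 59.1 and 57.1 CPM at days 7 and 11, against 16.2 CPM at day 3 (log2 fold change 1.85 ± 0.24, edgeR adjusted p = 2.82e-04), with uninjured levels of 17.6 to 23.6 CPM; cox17 encodes a copper chaperone of cytochrome c oxidase. atp5d.S was at 217 and 236 CPM on the late days, against 89.4 CPM at day 3 (log2 fold change 1.34 ± 0.19, edgeR adjusted p = 4.99e-04). mrpl51.L measured 58.4 and 44.1 CPM at days 7 and 11, against 15.5 CPM at day 3 (log2 fold change 1.73 ± 0.27, edgeR adjusted p = 7.86e-04). atp5b.S, for a subunit of the ATP synthase, was at 886 and 1007 CPM on the late days, against 838 CPM at day 3 (0.18 ± 0.19, edgeR adjusted p = 0.516). Glycolytic genes had 5 of 17 that rose and 2 that fell (median -0.30). Their summed level went the other way from the median, at 4267 and 4627.5 CPM on the late days, against 3299.5 CPM at day 3 (uninjured 3039 to 3517 CPM). In TPM the sums were 3428.5 and 3597, against 3016 at day 3, and contralaterally 3567 and 3357.5, against 3669. Both copies of pgam1, for phosphoglycerate mutase, rose, and both copies of hk1, for hexokinase, fell.

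Of 25 tubulin and gamma-tubulin complex genes 12 rose and 3 fell, with a median of 0.67 (0.45 at day 7, 1.14 at day 11). tuba1b.S, for an alpha-tubulin, was at 5826 and 9888 CPM on the late days, against 2154 CPM at day 3, and the contralateral libraries had 2196 and 2161 CPM on the late days, against 2214 CPM at day 3 (log2 fold change 1.87 ± 0.31, edgeR adjusted p = 0.00144). The day 3 level lay close to the contralateral ones, and both late levels were above them. tubb6.L had 60.3 and 80.1 CPM in the late crushed eye, against 7.11 CPM at day 3 (log2 fold change 3.30 ± 0.31, edgeR adjusted p = 3.78e-05), with uninjured levels of 0.525 to 1.65 CPM; tubb6 encodes a beta-tubulin. tuba1c.S reached 1320.1 and 2368 CPM at days 7 and 11, against 461 CPM at day 3 (log2 fold change 2.00 ± 0.33, edgeR adjusted p = 0.00163). Those that fell were tuba4b.L and both copies of tubgcp3, of which tubgcp3 belongs to the gamma-tubulin complex. Reads of closely related tubulin genes can be assigned to either gene, which makes the split between them uncertain. Among 43 microtubule motor genes 6 rose and 0 fell, against 14.6% and 18.3% of all genes (median 0.16, and -0.01 with total counts as the scale). The share that rose is thus near that of all genes. dynll1.S, for a dynein light chain, was at 106 and 174 CPM on the late days, against 49.2 CPM at day 3 (1.51 ± 0.29, edgeR adjusted p = 0.00307).

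Among lists with at least 10 members, annexins, S100 proteins and AHNAK had the highest median, 1.93, with 11 of 13 genes that rose and 0 that fell. The difference between eyes passed for 6 in the higher and 0 in the lower direction. anxa2.S was at 659 and 1342 CPM on the late days, against 118 CPM at day 3, and the contralateral libraries had 37.6 and 36.3 CPM on the late days, against 25.3 CPM at day 3 (log2 fold change 3.09 ± 0.43, edgeR adjusted p = 0.00148). The late levels of this membrane-binding protein gene were above day 3, and day 3 was above the contralateral eye. anxa5.S was at 233 and 440.4 CPM on the late days, against 41.6 CPM at day 3 (log2 fold change 3.02 ± 0.39, edgeR adjusted p = 7.98e-04). Intermediate filament genes split. The neurofilament genes nefh and nefl fell in both copies: nefh.S measured 7.86 and 10.1 CPM at days 7 and 11, against 76.1 CPM at day 3 (log2 fold change -3.08 ± 0.24, edgeR adjusted p = 1.12e-05), and nefl.S was at 27.3 and 38.7 CPM on the late days, against 247 CPM at day 3 (-2.90 ± 0.23, edgeR adjusted p = 1.26e-05). nefm.L, for the medium neurofilament chain, was at 791 and 1311 CPM on the late days, against 741 CPM at day 3 (0.50 ± 0.30, edgeR adjusted p = 0.231). Genes of vimentin and nestin rose. vim.L had 181 and 382 CPM in the late crushed eye, against 26.4 CPM at day 3 (log2 fold change 3.41 ± 0.68, edgeR adjusted p = 0.0159), and nes.L was at 33.3 and 33.7 CPM on the late days, against 12.1 CPM at day 3 (1.47 ± 0.36, edgeR adjusted p = 0.00994). Vimentin is also a marker of Mueller glia, whose other markers are given below. In all, 4 rose and 5 fell of 12 (median -0.17, and 0.21 at day 11 alone).

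Actin-binding and actin assembly genes rose in 26 and fell in 8 of 74 cases (median 0.47). fhl3.L reached 120 and 155 CPM at days 7 and 11, against 15.2 CPM at day 3 (log2 fold change 3.18 ± 0.28, edgeR adjusted p = 2.36e-05). The contralateral libraries had 1.96 and 2.57 CPM of fhl3.L on the late days, against 0.614 CPM at day 3, and the difference between eyes did not pass (1.26 ± 0.46, edgeR adjusted p = 0.0877). tagln2.L, for an actin-binding protein, was at 509 and 766 CPM on the late days, against 139.8 CPM at day 3 (2.19 ± 0.26, edgeR adjusted p = 1.82e-04). fhl3 encodes a LIM-domain protein. actg1.S, for a cytoplasmic actin, fell: 1297 and 2176 CPM on the late days, against 3210.4 CPM at day 3 (-0.89 ± 0.28, edgeR adjusted p = 0.0319). Its day 3 level was above its uninjured range of 1793 to 2296 CPM. The growth cone and axon regrowth list split, with 12 of 50 that rose, 13 that fell and a median of 0.02 (-0.14 with total counts as the scale). csrp2.S was at 45.3 and 38.7 CPM on the late days, against 2.96 CPM at day 3 (log2 fold change 3.83 ± 0.36, edgeR adjusted p = 3.47e-05); csrp2 encodes a LIM-domain protein. rtn1.L, a reticulon gene, was at 2244 and 2361 CPM on the late days, against 1009 CPM at day 3 (1.19 ± 0.22, edgeR adjusted p = 0.00199). gpm6a, for a membrane glycoprotein of neurites, fell in both copies. gpm6a.S measured 56.3 and 40.4 CPM at days 7 and 11, against 377 CPM at day 3 (log2 fold change -2.96 ± 0.21, edgeR adjusted p = 7.24e-06).

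Of 47 extracellular matrix and matrix protease genes 11 rose and 11 fell (median -0.13). Those that rose included 2 matrix metalloproteinase genes and a plasminogen activator gene. mmp28.L was at 98.1 and 76.0 CPM on the late days, against 3.93 CPM at day 3, and the contralateral libraries had 2.82 and 1.72 CPM on the late days, against 1.31 CPM at day 3 (log2 fold change 4.47 ± 0.37, edgeR adjusted p = 1.64e-05). mmp24.L was at 523 and 499 CPM on the late days, against 111 CPM at day 3 (2.2 ± 0.20, edgeR adjusted p = 2.99e-05), and plat.L, for tissue plasminogen activator, at 96.8 and 108 CPM, against 25.3 CPM (2.02 ± 0.25, edgeR adjusted p = 2.12e-04). col12a1.1, a collagen gene, and adamts1.S, a protease gene, fell. col12a1.1 had 3.00 and 2.95 CPM in the late crushed eye, against 18.0 CPM at day 3 (log2 fold change -2.59 ± 0.30, edgeR adjusted p = 1.34e-04).

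Sterol synthesis genes had a median of 0.61 at day 7 and 1.6 at day 11. Of 24, 9 rose and 1 fell. fdps.L, for farnesyl diphosphate synthase, had the largest ratio of the list: fdps.L was at 93.4 and 378 CPM on the late days, against 20.7 CPM at day 3, and the contralateral libraries had 40.7 and 33.5 CPM on the late days, against 33.7 CPM at day 3. Its day 11 level was far above its day 7 level, and its edgeR adjusted p was 0.0887. msmo1.S reached 18.6 and 26.4 CPM at days 7 and 11, against 5.96 CPM at day 3 (log2 fold change 1.91 ± 0.40, edgeR adjusted p = 0.00386); msmo1 encodes a sterol oxidase. srebf2.L, for the transcription factor of the sterol pathway, was the gene that fell (-1.25 ± 0.40, edgeR adjusted p = 0.0345). Among 34 fatty acid and phospholipid genes 3 rose and 3 fell, both below the shares of 14.6% and 18.3% of all genes (median -0.12). Both copies of fads2, the desaturase that makes polyunsaturated fatty acids, rose. fads2.S was at 280.4 and 434 CPM on the late days, against 68.8 CPM at day 3 (log2 fold change 2.38 ± 0.28, edgeR adjusted p = 1.70e-04). fads2.L was at 165 and 252 CPM on the late days, against 41.4 CPM at day 3 (2.33 ± 0.28, edgeR adjusted p = 1.70e-04). Polyamine synthesis and arginase genes had 3 of 14 that rose and 1 that fell, against 14.6% and 18.3% of all genes. Among those that rose was odc1.L, the rate-limiting enzyme of polyamine synthesis, at 412 and 395 CPM on the late days, against 166 CPM at day 3 (1.28 ± 0.24, edgeR adjusted p = 0.00254).

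**Figure D4:**
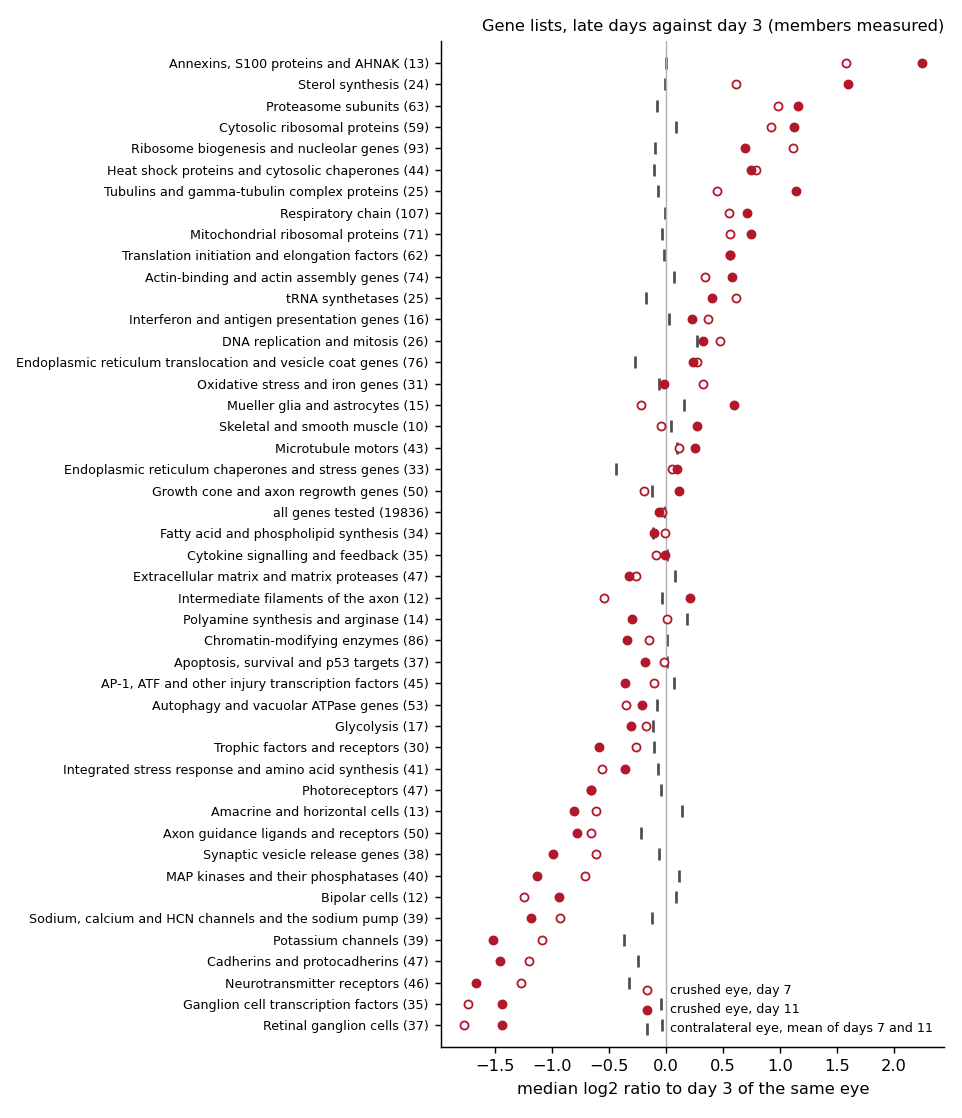
Median log2 ratio to day 3 of the same eye for each gene list with at least 10 measured members (number in parentheses), at day 7 (open) and day 11 (filled) in the crushed eye, and as the mean of days 7 and 11 in the contralateral eye (grey bars). Annexins, sterol synthesis, proteasome and ribosomal protein lists are at the top with medians of 1.93, 1.14, 1.01 and 1.00, and ganglion cell markers at the bottom with -1.65.

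For the remaining lists the counts are read against 14.6% of all genes that rose and 18.3% that fell. Endoplasmic reticulum chaperone and stress genes had 5 of 33 that rose and 1 that fell (median 0.07), and the median was -0.09 with total counts as the scale. Genes of protein translocation and vesicle coats had 11 of 76 that rose and 2 that fell (median 0.23). Oxidative stress and iron genes had 5 of 31 that rose and 7 that fell (median 0.23), with gpx3.S, an antioxidant peroxidase gene, at 5.67 and 5.62 CPM on the late days, against 82.4 CPM at day 3 (-3.87 ± 0.22, edgeR adjusted p = 2.50e-06). Autophagy and vacuolar ATPase genes had 4 of 53 that rose and 11 that fell (median -0.23). Chromatin-modifying enzymes had 11 of 86 that rose and 17 that fell (median -0.20). ezh1.L measured 47.8 and 38.2 CPM at days 7 and 11, against 202 CPM at day 3 (log2 fold change -2.23 ± 0.19, edgeR adjusted p = 1.94e-05), and setd7.L, for a lysine methyltransferase, was at 76.2 and 118 CPM on the late days, against 16.9 CPM at day 3 (2.52 ± 0.31, edgeR adjusted p = 1.79e-04). DNA replication and mitosis genes had 3 of 26 that rose and 0 that fell (median 0.25). orc2.S had 4.92 and 9.74 CPM in the late crushed eye, against 0.309 CPM at day 3 (log2 fold change 4.55 ± 0.84, edgeR adjusted p = 0.00213), on 7 counts at day 3; orc2 encodes a subunit of the origin recognition complex. Interferon and antigen presentation genes had 3 of 16 that rose and 2 that fell (median 0.29).

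The highest ratios among genes with a symbol came from low day 3 levels. Of the 12 highest, 11 had 0 counts at day 3, as did 32 of the 1791 higher genes. The fold against a floor of 3 counts is then a lower bound with regard to counting error in that library only. It does not cover how reads were assigned between gene copies. rasgrp1.S, for a Ras exchange factor, was at 8.26 and 4.05 CPM on the late days, at least 62.4-fold and 30.6-fold higher. ydjc.S was at 4.53 and 3.97 CPM, at least 34.2-fold and 30.0-fold higher. For gng5.L, il17rel.L, krt17.S, efhc2.S, palld-like.L, thop1.L, poc1b.L, cuedc2.L and lgals3.L the bounds ran from 10.0-fold to 33.0-fold. Contralateral levels of poc1b.L, 3.05 and 2.66 CPM on the late days, against 2.43 CPM at day 3, and of cuedc2.L, 2.25 and 1.90 CPM on the late days, against 2.59 CPM at day 3, lay near the late crushed levels of 1.33 and 3.50 CPM and 1.38 and 3.20 CPM, and the day 3 crushed library, with 0 counts, was the low one for both. clrn1.S alone of the 12 had counts at day 3: clrn1.S reached 25 and 26.0 CPM at days 7 and 11, against 0.441 CPM at day 3 (log2 fold change 5.84 ± 0.55, edgeR adjusted p = 3.72e-05), with uninjured levels of 0 to 0.894 CPM; clrn1 encodes clarin-1, a membrane protein of sensory cells.

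The smallest edgeR p-values among the higher calls belonged to loc398404.L, ecel1.1, mmp28.L, sfrp2.S and cldn4.L. loc398404.L was at 188 and 168 CPM on the late days, against 16.4 CPM at day 3 (log2 fold change 3.44 ± 0.24, edgeR adjusted p = 5.59e-06). ecel1.1 was at 60.9 and 66.1 CPM on the late days, against 4.06 CPM at day 3, and the contralateral libraries had 1.44 and 1.18 CPM on the late days, against 1.2 CPM at day 3 (log2 fold change 3.97 ± 0.32, edgeR adjusted p = 1.46e-05); in rodents ecel1 encodes an endopeptidase-like protein that is induced in injured neurons. sfrp2.S measured 78.9 and 85.5 CPM at days 7 and 11, against 9.36 CPM at day 3 (log2 fold change 3.13 ± 0.27, edgeR adjusted p = 2.09e-05); sfrp2 encodes a secreted modulator of Wnt signalling. cldn4.L had 126 and 128 CPM in the late crushed eye, against 18.9 CPM at day 3 (log2 fold change 2.75 ± 0.24, edgeR adjusted p = 2.31e-05); cldn4 encodes a tight junction protein. In each of these 5 the crushed-eye day 3 level was above the contralateral day 3 level, and both late levels were far above it. Among the lower calls the smallest p-values belonged to irx4.L, kcnip3.L, fxyd7.L, hpcal4.L and sncg.L. hpcal4.L stood at 14.9 and 11.6 CPM at days 7 and 11, against 224 CPM at day 3 (log2 fold change -4.08 ± 0.20, edgeR adjusted p = 9.42e-07); hpcal4 encodes a neuronal calcium sensor. Others among the 12 lowest were spa17.1, syt12.S and mchr1.2.L. spa17.1 was at 0.272 and 0.150 CPM on the late days, against 8.12 CPM at day 3 (-5.19 ± 0.38, edgeR adjusted p = 8.17e-06), syt12.S, a synaptotagmin gene, at 0.204 and 0.375 CPM, against 8.61 CPM (-4.92 ± 0.54, edgeR adjusted p = 1.02e-04), and mchr1.2.L, a receptor gene for melanin-concentrating hormone, at 1.29 and 0 CPM, against 9.36 CPM (-3.76 ± 1.37, edgeR adjusted p = 0.0980).

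The difference between eyes also did not pass for other genes given above that rose or fell with counts at day 3. They included fosl1.L, sox11.L, klf7.L, igf2.L, irf1.S, osmr.S, srebf2.L, slc17a6.S, epha3.L, kcnf1.L, map2k1.L, hk1.S, gadd45a.L, tnfrsf1a.L, btg2.S, ddit3.L, nes.L, vim.L, nhp2.L, ddx21.1, ndufa6.S and actg1.S. Among genes with 0 counts at day 3, the difference between eyes did not pass for il17rel.L, krt17.S, efhc2.S, palld-like.L and thop1.L. Of the genes named next it did not pass for nppc.S and ppargc1a.S.

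Some genes were above the uninjured range at day 3 and not later. Among those above the uninjured range at day 3 and back within it on both late days, chosen after their values were seen, were nppc.S, errfi1.S, itgb8.L and ppargc1a.S. nppc.S was at 1.94 and 0.800 CPM on the late days, against 12.7 CPM at day 3 (log2 fold change -3.20 ± 0.61, edgeR adjusted p = 0.00262), with uninjured levels of 0.698 to 2.28 CPM; nppc encodes C-type natriuretic peptide. errfi1.S measured 7.81 and 5.97 CPM at days 7 and 11, against 32.4 CPM at day 3 (log2 fold change -2.23 ± 0.33, edgeR adjusted p = 5.67e-04), with uninjured levels of 4.90 to 10.4 CPM; errfi1 encodes a feedback inhibitor of EGF receptors. itgb8.L had 13.6 and 13.6 CPM in the late crushed eye, against 45.4 CPM at day 3 (log2 fold change -1.74 ± 0.25, edgeR adjusted p = 5.12e-04), and its uninjured levels were 12.3 to 16.4 CPM. The opposite course, below the range at day 3 and above it later, was taken by pxn.L, for the adhesion protein paxillin: pxn.L reached 4.55 and 5.82 CPM at days 7 and 11, against 0.177 CPM at day 3 (log2 fold change 4.85 ± 0.96, edgeR adjusted p = 0.00313), with uninjured levels of 0.554 to 1.92 CPM, on 4 counts at day 3.

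Xenopus laevis carries most genes as an .L and an .S copy from an ancestral genome duplication. Both copies were measured for 3785 symbols. Both were called higher by fold for 103 and both lower for 253, while a single copy was called higher for 368 and lower for 429. Copies went opposite ways for 10: cav2, cldn4, entpd2, fam189a1, gfra2, hip1, kank3, klhl35, osgin2 and tmem38a. Of all genes tested, 9.03% were called higher by fold and 12.1% lower. Whether these pair counts depart from those shares was not tested. gfra2.L was at 131 and 169 CPM on the late days, against 35.2 CPM at day 3 (log2 fold change 2.09 ± 0.25, edgeR adjusted p = 1.54e-04), whereas gfra2.S was at 4.17 and 1.77 CPM, against 19.5 CPM (-2.69 ± 0.41, edgeR adjusted p = 9.43e-04); gfra2 encodes a receptor for the trophic factor neurturin. The log2 ratios of cldn4.L were 2.73 and 2.76 on days 7 and 11 and those of cldn4.S -1.24 and -1.87. Reads of near-identical copies may be shared between them by the counting.

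Markers of other cells moved with the contrast in part. The extraction protocol states that the lens and the pigment epithelium had been taken off the retina. Photoreceptor markers summed to 3314 and 3471 CPM on the late days, against 4598 CPM at day 3 (uninjured 4416 to 5614 CPM), and 0 of 47 rose and 22 fell. Bipolar cell markers summed to 85.6 and 109 CPM on the late days, against 219.9 CPM at day 3 (uninjured 332 to 382 CPM), and 0 of 12 rose and 5 fell. Amacrine and horizontal cell markers summed to 138 and 143 CPM on the late days, against 181 CPM at day 3 (uninjured 177 to 205 CPM), and 1 of 13 rose and 2 fell. Mueller glia and astrocyte markers summed to 549 and 854 CPM on the late days, against 541 CPM at day 3 (uninjured 466 to 591 CPM), and 3 of 15 rose and 2 fell. The 3 that rose there were both copies of vim and apoe.L, and those that fell were ca2.L and clu.L. Of this sum, vim.L made up 181 and 382 CPM on the late days, against 26.4 CPM at day 3. apoe.L had 0 counts at day 3 in the crushed eye. In the higher direction the difference between eyes passed for 0 of the 15. Pigment epithelium markers summed to 12.2 and 10.5 CPM on the late days, against 38.1 CPM at day 3 (uninjured 34.8 to 46.6 CPM), and 0 of 3 rose and 1 fell. Leukocyte and microglia markers summed to 20.8 and 16.5 CPM on the late days, against 14.5 CPM at day 3 (uninjured 14.5 to 20.0 CPM), and 1 of 3 rose and 0 fell. Oligodendrocyte and Schwann cell markers summed to 216 and 179 CPM on the late days, against 406 CPM at day 3 (uninjured 596 to 753 CPM), and 2 of 5 rose and 1 fell. The fall of this sum came from mpz.L, at 97.5 and 63.9 CPM on the late days, against 353 CPM at day 3. Both copies of pmp22 rose, with pmp22.L at 59.3 and 65.3 CPM on the late days, against 22.6 CPM at day 3. Endothelial and blood cell markers summed to 107 and 58.3 CPM on the late days, against 97.3 CPM at day 3 (uninjured 45.8 to 62.9 CPM), and 0 of 8 rose and 0 fell. Lens and cornea markers summed to 181 and 202 CPM on the late days, against 32.8 CPM at day 3 (uninjured 33.7 to 59.0 CPM), and 3 of 8 rose and 0 fell, the genes that rose being both copies of cryab and cryba1.L. Of this sum, cryab.L made up 128 and 128 CPM on the late days, against 15.0 CPM at day 3. cryab.S made up 21.8 and 21.2 CPM, against 2.07 CPM. Both copies are also counted among the heat shock proteins above. Muscle markers summed to 109.5 and 169.7 CPM on the late days, against 110.2 CPM at day 3 (uninjured 112 to 126 CPM), and 1 of 10 rose and 0 fell. Models at 0 in all 11 TRAP libraries were gad1.2.S, vim.2.S, dct.S, ttr.S, olig1.L, olig1.S, olig2.L, krt12.S, krt5.3.L, krt5.3.S, myod1.L, myod1.S, myog.L and tnnc1.S. The difference between eyes passed for 0 of the 47 photoreceptor, 0 of the 3 leukocyte and 0 of the 10 muscle markers. It passed in the lower direction for 3 of the 12 bipolar cell markers, namely gpr179.L and both copies of isl1. The isl1 copies were enriched in TRAP RNA over total retina RNA in unoperated frogs (log2 ratios 2.16 for isl1.L and 2.13 for isl1.S), and gpr179.L was not (-0.23). The difference also passed in the lower direction for 1 marker each of the amacrine, Mueller glia, pigment epithelium, oligodendrocyte and endothelial lists. In the higher direction it passed for 2 of the 8 lens and cornea markers, namely both copies of cryab, and for 1 oligodendrocyte marker. Over all genes the shares were 8.75% lower and 6.53% higher, and 1 marker of a short list does not set that list apart. The part of other cell types in the gene lists above was not tested.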

How the data were processed

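Expected counts and TPM values per gene model were made by the authors with RSEM, per the file headers; Trimmomatic 0.33, Bowtie2 2.2.5 and RSEM 1.2.21 are named in the submitters' processing notes. The genome build is not given in the sources used here. Reads were from poly(A)-selected RNA, per the labels' protocols. The 12 libraries share 45099 gene models, of which 17409 carry a symbol.

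TMM factors came from genes with 200 or more counts, and log2 CPM used a prior count of 2. Expected counts were rounded before edgeR 4.0.16 (quasi-likelihood, Benjamini-Hochberg adjustment; R 4.3.3) was fitted to 6 libraries in 4 groups. Limma 3.58.1 (voom) and DESeq2 1.42.0 were alternatives, and the scripts were tested on simulated data. Crushed and contralateral libraries of a day come from the same frogs, per the labels, and a fit with the day as a block was an alternative. Standard errors are the log2 fold change over the square root of F.

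Named genes were the 12 highest and 12 lowest ratios among fold-called genes with a symbol that stayed within 2-fold in the contralateral eye, the 5 smallest edgeR p-values each way, and per list the 3 largest ratios and the highest CPM. All other genes named were chosen after their values were seen. The contrast, the 39 pathway lists and the 11 marker lists were chosen with earlier results of these data known, so no list is independent evidence of its direction. Intervals for single libraries would cover counting error only and are not given. No batch is named in the labels. The day 1 and sham libraries, total retina and FPKM values entered no test of the contrast. A few named genes are not reported here.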

Additional observations from a re-analysis of the deposited data

Results flagged for a closer look

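The genes below are those named by rank for which the test of the difference itself passed, that is, the late against day 3 change in the crushed eye minus that in the contralateral eye, in edgeR. Values are that log2 difference with its standard error and the adjusted p. The ranks came from the crushed-eye values of the same libraries, and a mean contralateral change of 2-fold or more kept a gene out. Passing is therefore in large part built into the choice and is no further evidence for these genes.

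Among genes that went further down in the crushed eye, transcription factor genes came with irx4.L (-4.31 ± 0.27, edgeR adjusted p = 3.96e-05), irx4.S (-4.47 ± 0.41, edgeR adjusted p = 0.000199) and fos.S (-5.30 ± 0.67, edgeR adjusted p = 0.00338). Channel and excitability genes were fxyd7.L (-5.62 ± 0.37, edgeR adjusted p = 4.35e-05), kcnip3.L (-4.10 ± 0.29, edgeR adjusted p = 7.01e-05), scn2b.L (-4.50 ± 0.42, edgeR adjusted p = 0.000362) and kcns1.L (-5.45 ± 0.55, edgeR adjusted p = 0.000862). Genes of signalling peptides, receptors and calcium sensing were grp.S (-6.05 ± 0.41, edgeR adjusted p = 7.09e-05), hpcal4.L (-4.25 ± 0.30, edgeR adjusted p = 6.45e-05), htr1d.L (-4.86 ± 0.62, edgeR adjusted p = 0.00109), htr1d.S (-4.44 ± 0.96, edgeR adjusted p = 0.0168) and syt12.S (-4.64 ± 0.77, edgeR adjusted p = 0.00375). The others were sncg.L (-3.77 ± 0.28, edgeR adjusted p = 7.09e-05) and spa17.1 (-5.67 ± 0.53, edgeR adjusted p = 0.000201).

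Among genes that went further up in the crushed eye were sfrp2.S (3.71 ± 0.35, edgeR adjusted p = 0.000236), loc398404.L (3.07 ± 0.31, edgeR adjusted p = 0.000295), ecel1.1 (3.87 ± 0.45, edgeR adjusted p = 0.000676), mmp28.L (3.75 ± 0.50, edgeR adjusted p = 0.00136), cldn4.L (2.34 ± 0.34, edgeR adjusted p = 0.00214) and clrn1.S (5.05 ± 0.77, edgeR adjusted p = 0.00258). The remaining 6 had 0 counts in the day 3 crushed library, so that the fitted difference has no size to give. Their edgeR adjusted p was 0.00857 for rasgrp1.S, 0.0126 for cuedc2.L, 0.0137 for ydjc.S, 0.0178 for poc1b.L, 0.0236 for gng5.L and 0.0458 for lgals3.L.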

How the results depend on the processing

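Without a filter on counts, the fold rule called 3699 genes higher and 4785 lower in the crushed eye, and 1572 and 1141 in the contralateral eye. At a 4-fold limit the counts were 346 and 544 in the crushed eye and 58 and 16 contralaterally. With at least 1000 counts, 1278 genes were lower in the crushed eye, and 45 higher and 15 lower contralaterally. Contralateral counts were 748 and 362 with 50 counts, and 128 and 46 with the filter on the contralateral libraries. Leaving out one late library gave 2292 to 2740 higher and 2968 to 3581 lower in the crushed eye, and 442 to 525 and 336 to 424 contralaterally. By edgeR the same step gave 2330 to 3951 higher and 2959 to 4842 lower in the crushed eye, and 426 to 2930 and 814 to 3714 for the difference between eyes; without a late crushed library the spread comes from the contralateral eye alone, and the lone library is assumed to vary like it. Contralateral edgeR calls were 52 higher and 59 lower without the day 7 crushed library, 48 and 57 without that of day 11, and 19 and 2 without a filter.

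With total counts as the scale, 766 genes were called higher for the difference between eyes. With the replicate block (pairing of the eyes by day) this difference was called for 1582 genes higher and 2115 lower, within 1.5 times of the unblocked counts. DESeq2 called 3062 higher and 3567 lower in the crushed eye, limma-voom 2398 and 3406. No count of calls or named gene turned its direction. Some list medians changed sign, as with total counts for endoplasmic reticulum chaperones (-0.09), growth cone genes (-0.14) and microtubule motors (-0.01), with 50 counts for endothelial and blood cell markers (0.46) and interferon genes (-0.06), and without the day 11 crushed library for Mueller glia markers (-0.22). Among named genes, palld-like.L lost its call with DESeq2, kcnf1.L lost it without a filter or without either late contralateral library, and mchr1.2.L passed with limma-voom, with the spread of 11 TRAP libraries and without either late crushed library. TMM factors from other libraries or from all gene models, chosen after seeing the data, moved no count of calls in the crushed eye or between eyes by over 1.5 times. The causes of these shifts were not tested. The day 3 crushed library, at 22615118 counts, limits the precision of genes that were low there.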
